A study of Mus musculus with 19 samples.

Results

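The difference between the second and the first duplicate library was measured within single lines of mouse induced pluripotent stem cells (iPSC). The lines were chosen from the sample titles: a line entered where it had a library numbered 1 and a library numbered 2. This gave 14 libraries of 7 lines, out of 19 libraries of 10 lines in the series. No measured value entered the choice.

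The study derived embryonic fibroblasts at embryonic day 14.5 by crossing heterozygotes of the db allele of Lepr, the gene of the leptin receptor. Fibroblasts of both genotypes were reprogrammed with the STEMCCA lentivirus, which carries mouse Oct4, Sox2, Klf4 and cMyc, so every line used here carries that vector. There were 3 control lines without the mutation (aB6_B1, bB6_A5 and bB6_B1, 6 libraries) and 4 lines homozygous for it (adb_db5, adb_db7, bdb_db5 and bdb_db7, called db/db, 8 libraries). A control line with a single library and 4 libraries of gene-corrected lines were left out. Total RNA was made into stranded mRNA libraries. The labels say that RNA was prepared in duplicates, but not whether duplicates were separate cultures, separate extractions or repeats of 1 extraction, nor on which day each was made. The p-values therefore measure only the spread between these libraries, which may be technical.

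Mouse iPSC are kept in an undifferentiated state by a network of transcription factors around Oct4, Sox2 and Nanog, supported by leukemia inhibitory factor (LIF) acting through Stat3. Fibroblasts, by contrast, build the fibrous matrix between cells from collagens and the enzymes that link them. Cultured cells also carry transcripts that follow their surroundings: immediate early genes respond within minutes to growth factors or handling, ATF4 drives genes for amino acid uptake and synthesis when amino acids are scarce, and SREBP2 drives cholesterol synthesis when sterols are low.

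The libraries held 27333914 to 37803560 estimated counts. The number was lower in duplicate 2 in 7 of 7 lines (exact two-sided sign-flip permutation test over 7 lines, p = 0.0156, the smallest this design can give; 0.0416 after Benjamini-Hochberg adjustment over 8 library measures). Pluripotency markers were abundant in every library: Pou5f1, which encodes Oct4, lay at 1399 to 1592 CPM (counts relative to the scaled size of the library), Sox2 at 411 to 755 and Esrrb at 622 to 803. Counts of Pou5f1 and Sox2 may include transcripts of the vector. Nanog, which is not among the vector's genes, lay at 358 to 619 CPM. One library stood apart: the second duplicate of adb_db7 had 5.04% of its counts on transcripts that overlap ribosomal RNA, against 0.0969% to 0.563% in the other 13. Lines whose names differ only in the first letter were near copies for B1 and db5, and less so for db7. Over the 9018 genes whose mean reached 10 CPM, the SD of the log2 difference between an a and a b library of the same name and number was 0.0797 to 0.262, with a median of 0.105. Between the duplicates of a line it was 0.103 to 0.173, with a median of 0.118. For adb_db7 against bdb_db7 it was above that range, at 0.212 for the first and 0.262 for the second duplicates. Since the 7 lines hold 4 such names (A5, B1, db5 and db7), p-values over 7 lines are too small, and counts with the 4 names as the unit are given beside those over lines for all genes and for the lists described at length.

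Duplicates of a line differed by small amounts. Of 17754 genes tested with edgeR's quasi-likelihood test and the line as a block, 784 were higher in duplicate 2 (4.42% of the genes tested) and 1040 were lower (5.86%), together 10.3%. With the counts of lines of the same name added together, 340 genes were higher (1.76% of 19269) and 382 were lower (1.98%), and 710 of these 722 were also called over 7 lines. With scaling by library size alone the calls were 744 higher and 613 lower, which moved the share of higher genes among calls from 43.0% to 54.8%. The count rested in part on 3 lines: 509 genes were higher and 704 lower without bB6_B1, 516 and 591 without adb_db7, 466 and 539 without bdb_db7, and 264 and 344 without both db7 lines. The median size of a called difference was 0.146 on the log2 scale, and 1330 of the 1824 called genes had the same sign in all 7 lines, which the test itself favours. Over all 17754 genes it was 1998 (11.3%). Large differences were mostly rises: 149 called genes were higher by more than 0.5 on the log2 scale and 20 were lower by more than that. For 8 of the 17754 genes, 0.0451%, all 7 second duplicates lay above or below all 7 first duplicates, because levels differed more between lines than between duplicates.

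Among genes at 5 CPM or more in the higher duplicate, without predicted genes and pseudogenes, the largest rises were in collagens and other genes of fibroblasts. Of the 22 called genes that rose by more than 1 on the log2 scale at any level, Col6a2 was the only one on the fibroblast list. Of 30 tested genes on a list of fibroblast and feeder cell genes, 27 were higher in duplicate 2, with Ccn1 lower and with Thy1 and Ccn2 not passing the test. The median log2 difference of the list was 0.63, beside -0.003 over all genes, and 27 of the 30 were higher in all 7 lines. With shared names as the unit, 24 of the 30 were higher.

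Col1a1, a chain of type I collagen, had 36.7, 58.5 and 116 CPM as its lowest, median and highest value in the first duplicates. In the second duplicates it had 69.6, 114 and 200 CPM. The ranges overlap because control lines had more Col1a1 than db/db lines in both duplicates, while each line's second library was above its first. The fitted difference was 0.83 ± 0.04 (SE; log2, n = 7 lines), a 1.78-fold rise, with an adjusted p of 1.46e-08 in edgeR.

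**Figure D1:**
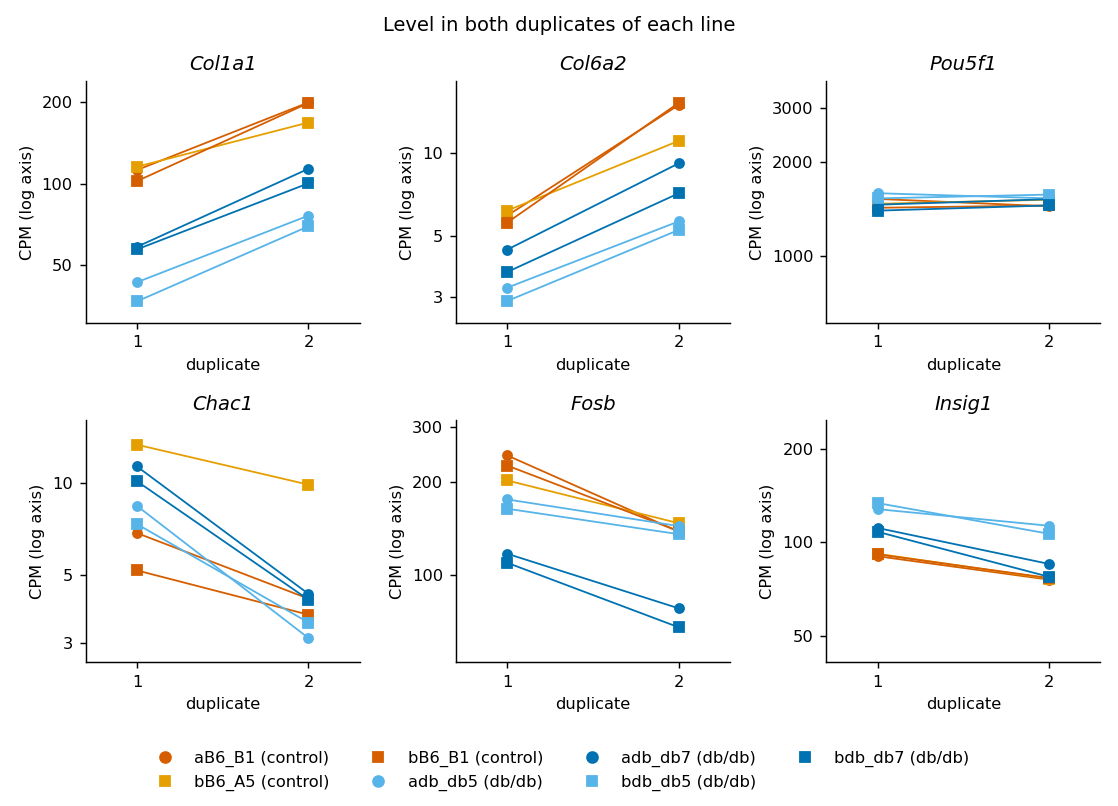
Level of 6 genes in CPM (log axis) in duplicates 1 and 2 of each of the 7 lines, with a line joining the libraries of 1 cell line, circles for a lines and squares for b lines. Col1a1 and Col6a2 go up in 7 of 7 lines, Chac1, Fosb and Insig1 go down in 7 of 7, and Pou5f1 stays at 1399 to 1592 CPM.

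Its partner chain Col1a2 had 22.3, 39.5 and 64.5 CPM (lowest, median, highest) in the first and 40.2, 69.9 and 118 CPM in the second duplicates, a difference of 0.82 ± 0.04 (SE; edgeR adjusted p = 1.46e-08). The type VI collagen gene Col6a2 had 2.91, 4.47 and 6.19 CPM and then 5.27, 9.19 and 15.2 CPM. It rose by 1.06 ± 0.08 (SE) on the log2 scale, the largest rise among the genes named by rule (edgeR adjusted p = 1.86e-06). Both collagen groups moved in the same direction in every line, and Col6a2 moved most in the lines named B1, by 1.33 and 1.43, and by 0.79 to 1.03 in the other 5 lines.

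Other matrix genes followed. Col3a1, a collagen of loose connective tissue, went from 7.82, 12.4 and 21.2 CPM to 15.7, 23.4 and 38.4 CPM (difference 0.91 ± 0.06 SE). Lox, an enzyme that cross-links collagen, went from 8.53, 12.8 and 21.5 CPM to 14.7, 20.8 and 31.6 CPM (0.74 ± 0.04 SE). The cross-linking enzymes Loxl3, Loxl1 and Loxl2 differed by 0.77, 0.48 and 0.40. Of contractile genes, Acta2, the smooth muscle actin of activated fibroblasts, rose by 0.93 ± 0.09 (SE) and Tagln by 0.65 ± 0.09 (SE). The mesenchymal transcription factor Prrx1 and the receptor Pdgfrb, both found in fibroblasts, rose by 0.61 and 0.82 from medians of 2.29 and 2.46 CPM. Csf1, a growth factor for macrophages that fibroblasts make, was on no fibroblast list here and rose by 0.91 ± 0.07 (SE). Of the 10 largest rises named by rule, 6 were collagen genes, and the others were Acta2, Loxl3, Csf1 and Eno1b, a near copy of Eno1 whose estimated counts are uncertain.

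The most abundant gene of the list, Fn1, encodes fibronectin, which pluripotent cells also make. Its difference was small: 902, 992 and 1140 CPM in the first duplicates and 1013, 1120 and 1201 CPM in the second, a log2 difference of 0.16 ± 0.02 (SE). Without Fn1, the list's summed level had a lowest, median and highest value of 457, 630 and 946 CPM in the first and 589, 844 and 1229 CPM in the second duplicates, and was higher in duplicate 2 in 7 of 7 lines. As a share of all counts, the whole list made up 0.169% ± 0.0264 (SD, n = 7) of the first and 0.206% ± 0.0361 (SD, n = 7) of the second duplicates, higher in 7 of 7 lines (exact two-sided sign-flip permutation test, p = 0.0156, adjusted over 8 measures 0.0416). The list was chosen with earlier results of these data known, so this p-value is not independent support for its rise. In bulk RNA, more cells of a type and more RNA per cell cannot be told apart.

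**Figure D2:**
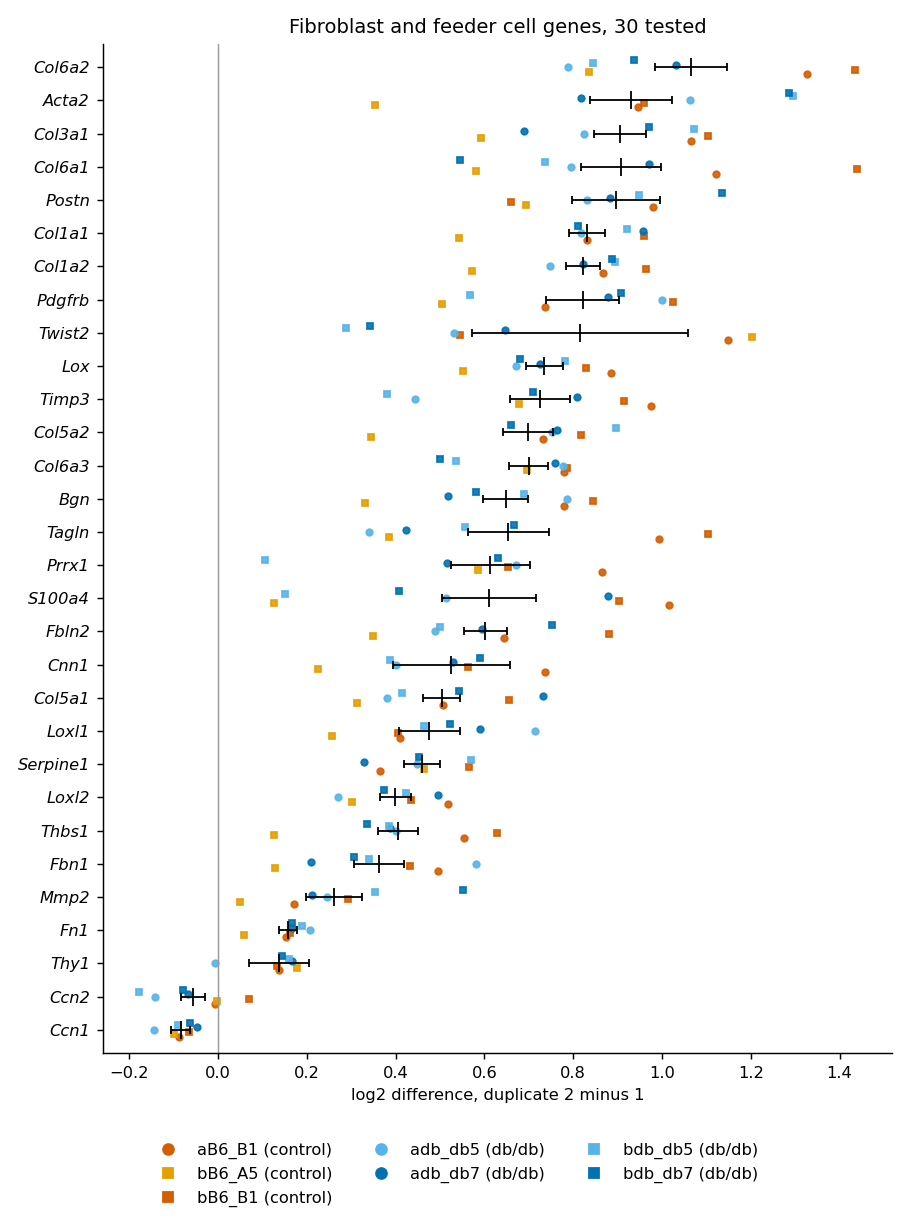
Log2 difference of duplicate 2 minus duplicate 1 (x axis) for each of the 30 tested fibroblast and feeder cell genes (y axis), with 1 point per line and black bars for the fitted difference ± SE. From Col6a2 down to Fn1 all points lie right of 0, all points of Ccn1 lie left of 0, and 1 of the 7 points of Ccn2 lies right of it.

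Of the 3 genes on the list that were not called higher, Ccn1 and Ccn2 encode matricellular proteins and are also YAP targets. Of 15 YAP-TEAD targets, 5 rose and 4 fell, with a median of 0.02. Ccn1 fell by 0.08 ± 0.02 (SE; edgeR adjusted p = 0.021) and was lower in 7 of 7 lines. Ccn2 differed by -0.06 ± 0.03 (SE; edgeR adjusted p = 0.219). Thy1, a surface protein of fibroblasts, differed by 0.14 ± 0.07 (SE; edgeR adjusted p = 0.217) at a median of 3.52 and 3.96 CPM, and was higher in 6 of 7 lines. Lists of other cells that iPSC cultures can hold had lower medians, and some had many members with too few counts to test. Of 20 tested primitive endoderm genes 2 rose and 0 fell (median 0.001). For neural progenitors 11 of 20 genes were tested, with 3 higher and 1 lower (median 0.099). For mesoderm 11 of 21 were tested, with 1 rising and 0 falling (median 0.16). Trophoblast genes had 2 rising and 3 falling of 13 (median -0.007), and germ cell genes 1 rising of 14 (median -0.063). Only 5 of 14 blood and endothelial genes were tested, with 0 called in either direction (median 0.032). Of 18 neuron genes, 5 were lower (Nefl, Map2, Stmn3, Ina and Gap43) and 0 higher, with a median of -0.04 and 7 of the 18 above 0. The count was 4 with shared names as the unit and 3 without adb_db7. The microtubule protein gene Map2 fell by 0.44 ± 0.06 (SE) and the neurofilament gene Nefl by 0.27 ± 0.03 (SE).

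Immediate early genes fell. Of 22 tested, 12 were lower in duplicate 2 and 0 were higher, with a list median of -0.13. With shared names as the unit 9 were lower. Fosb, a subunit of the AP-1 transcription factor, had 110, 176 and 243 CPM (lowest, median, highest) in the first and 68.1, 138 and 147 CPM in the second duplicates. It was lower in 7 of 7 lines, by 0.27 to 0.81, and the fitted difference was -0.54 ± 0.05 (SE; edgeR adjusted p = 1.85e-05).

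Egr3, a zinc finger factor induced by growth factor signalling, had 19.8, 22.5 and 31.9 CPM and then 11.8, 17.5 and 22.1 CPM, a difference of -0.56 ± 0.07 (SE; edgeR adjusted p = 0.000148). Its relative Egr1 was far more abundant, at 615, 724 and 929 CPM and then 505, 599 and 862 CPM, and fell by 0.23 ± 0.03 (SE). Fos fell by 0.25 ± 0.04, Klf6 by 0.30 ± 0.03 and Maff by 0.30 ± 0.03 (SE). Not every early gene moved: Jun differed by -0.02 ± 0.04, Myc by -0.04 ± 0.02 and Btg2 by 0.00 ± 0.03 (SE), and none of these passed the test. The size differed between lines, with the list's median at -0.23 in aB6_B1 and between -0.14 and -0.10 in the other 6 lines.

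Targets of the FGF-ERK pathway, which pushes pluripotent cells out of the naive state and induces its own inhibitors, moved likewise: 8 of 15 fell and 0 rose, and 6 fell with shared names as the unit. Egr1 and Fosl1 are on both lists. Dusp5, a phosphatase that holds ERK in the nucleus inactive, went from 63.4, 68.5 and 82.7 CPM to 45.9, 51.5 and 67.1 CPM, a difference of -0.38 ± 0.03 (SE; edgeR adjusted p = 2.26e-06). The feedback inhibitor Spry4 fell by 0.25 ± 0.03, the early response gene Phlda1 by 0.30 ± 0.04 and the cytosolic ERK phosphatase Dusp6 by 0.17 ± 0.03 (SE). The ETS factors Etv4 and Etv5, which ERK also induces, differed by -0.01 ± 0.02 each (SE) and did not pass. Ccnd1 was higher in 7 of 7 lines without passing the test (0.09 ± 0.03 SE, edgeR adjusted p = 0.0567).

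Genes of the ATF4 response fell as well: 15 of 30 were lower and 1, Ddit4, was higher, with a median of -0.11. With shared names as the unit 12 were lower. Atf4 itself had 347, 394 and 523 CPM in the first and 301, 326 and 443 CPM in the second duplicates and fell by 0.25 ± 0.02 (SE; edgeR adjusted p = 3.34e-06). Chac1, which degrades glutathione and is a sensitive ATF4 target, had the largest fall among the genes named by rule, from 5.18, 8.42 and 13.4 CPM to 3.12, 4.16 and 9.88 CPM. Its difference was -0.95 ± 0.11 (SE; edgeR adjusted p = 9.9e-05), lower in 7 of 7 lines.

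The amino acid transporters Slc7a1, Slc3a2 and Slc7a5 fell by 0.21 ± 0.02, 0.15 ± 0.02 and 0.12 ± 0.02 (SE), and Mthfd2, a mitochondrial enzyme of folate metabolism, by 0.18 ± 0.02 (SE). Ddit3 and Herpud1, which also respond to stress of the endoplasmic reticulum, fell by 0.31 ± 0.06 and 0.40 ± 0.06 (SE). On a separate list of the unfolded protein response, 1 of 23 genes fell and 0 rose. Asparagine synthetase Asns (-0.04 ± 0.02 SE) and the serine synthesis enzymes Phgdh (-0.01 ± 0.03 SE) and Shmt2 (0.01 ± 0.02 SE) did not pass the test.

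The other large falls named by rule were of genes with varied roles. Ypel2, of unclear function, went from 31.7, 52.1 and 87.4 CPM to 22.1, 29.0 and 52.7 CPM, a fall of 0.66 ± 0.05 (SE; edgeR adjusted p = 1.72e-06). Nt5e, the ectoenzyme that makes adenosine, fell by 0.47 ± 0.07, the natriuretic peptide gene Nppb by 0.45 ± 0.04 and the phosphatase gene Dusp14 by 0.43 ± 0.05 (SE). Pramel7, found in naive pluripotent cells, fell by 0.42 ± 0.07 and Zc3h12c, of a family of RNA-degrading proteins, by 0.42 ± 0.06 (SE). All 6 were lower in 7 of 7 lines, and the ranges of the duplicates overlapped for each.

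Short stretches upstream of 3 of the falling genes are shown as examples, each with a match to 1 of the motifs searched for. They are RefSeq sequences of the GRCm38.p6 build on the plus strand, 5′ to 3′, with the motif in capitals. The windows searched were the 250 bases before each RefSeq start, on both strands, for the ATF and C/EBP element (CARE, TGATGNAAN), the cyclic AMP response element (CRE, TGACGTCA) and the CArG box bound by serum response factor.
Chac1, chr2:119351002-119351101, 1 CARE on the minus strand: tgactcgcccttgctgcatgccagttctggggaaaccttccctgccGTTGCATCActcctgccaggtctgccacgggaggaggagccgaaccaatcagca
Dusp5, chr19:53529017-53529116, 2 CArG boxes: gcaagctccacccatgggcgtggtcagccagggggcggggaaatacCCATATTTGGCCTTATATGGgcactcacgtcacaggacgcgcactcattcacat
Maff, chr15:79347420-79347519, 1 CRE: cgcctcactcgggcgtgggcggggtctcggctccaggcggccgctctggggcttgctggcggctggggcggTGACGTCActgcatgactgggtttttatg
A CARE was found for 7 of 26 tested ATF4 response genes with a window (26.9%), beside 3.89% of 27025 genes with a window. A CRE was found for 3 of 16 immediate early genes (18.8%; 1.77% of all) and a CArG box also for 3 of 16 (18.8%; 1.62% of all). Among the genes that were lower, it was a CARE for 3 of 12 ATF4 response genes (25%), and a CRE for 2 and a CArG box for 1 of 10 immediate early genes. Dusp5 is on the FGF-ERK list, for which no share was counted. Matches were also found upstream of genes that rose: a CArG box for Myl9 (0.91 ± 0.14 SE) and a CRE for Foxd3 (0.14 ± 0.03 SE). These are matches of letters in short windows, and the lists were made of genes known to be targets of these factors.

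**Figure D3:**
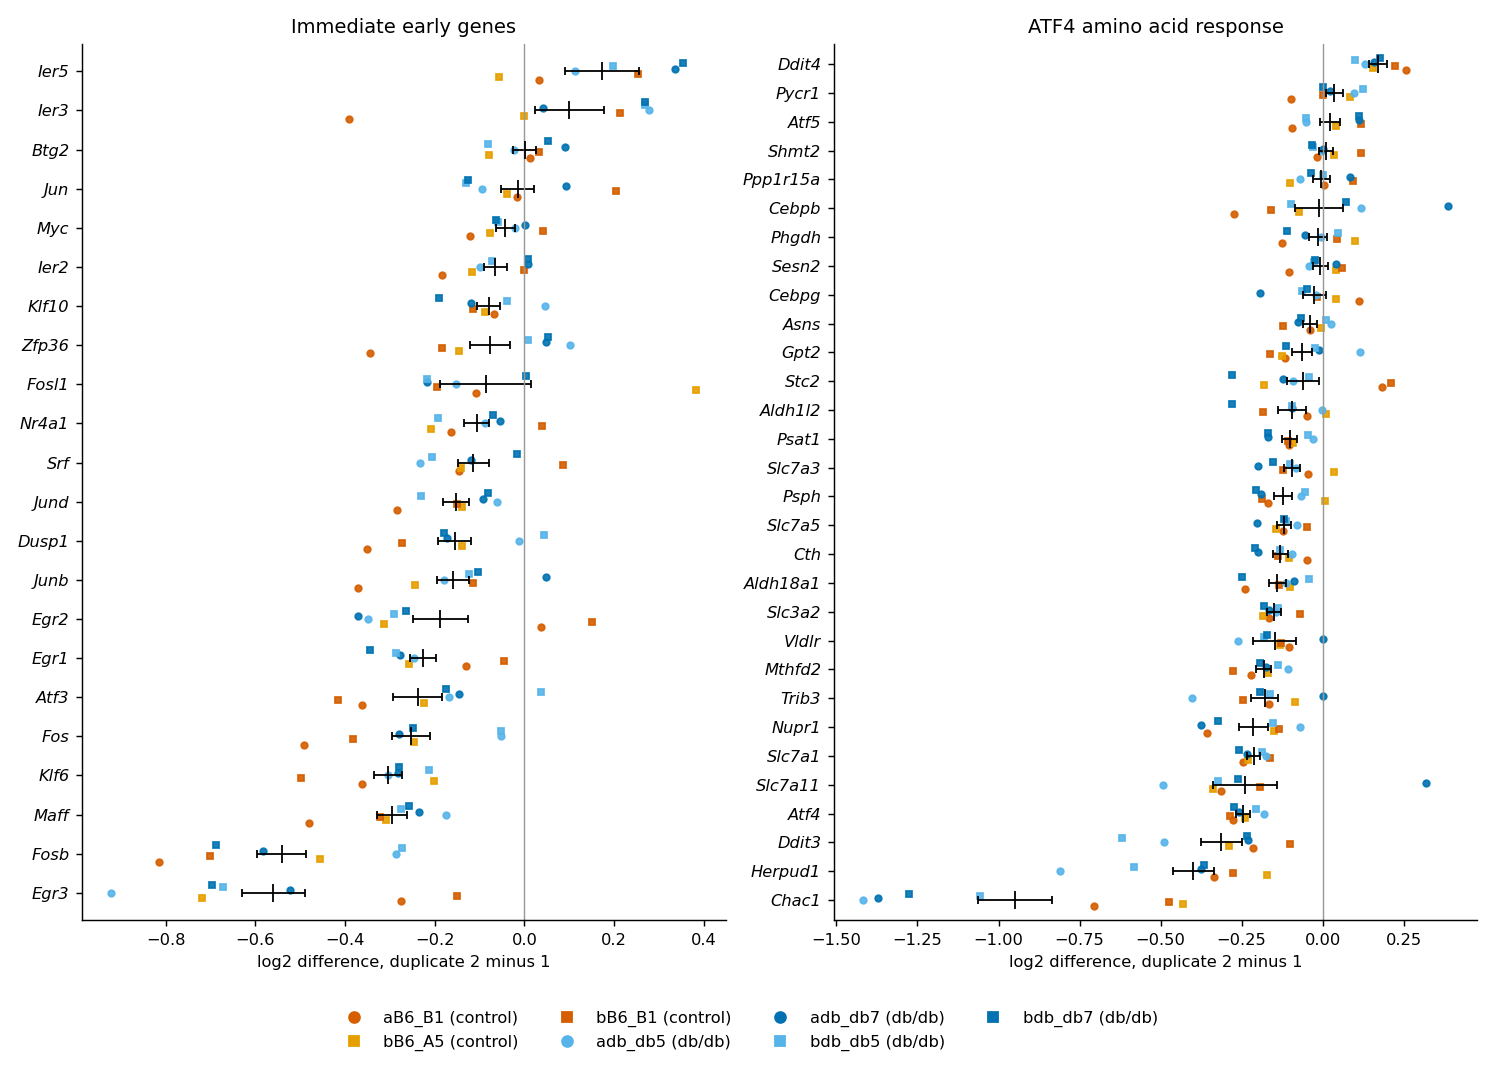
Log2 difference of duplicate 2 minus duplicate 1 (x axis) for every tested immediate early gene and ATF4 response gene, with 1 point per line and black bars for the fitted difference ± SE. Most points lie left of 0 and close together, with Chac1 (-0.95), Egr3 (-0.56) and Fosb (-0.54) farthest out.

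Part of the cholesterol synthesis genes fell, by small amounts. Of 27 SREBP2 targets, 13 were lower, 1 (Lpin1) was higher and the median was -0.12. With shared names as the unit 10 were lower, and without both db7 lines 6 were. Insig1, which holds SREBP2 back when sterols are plentiful and is its target, had 90.1, 108 and 134 CPM in the first and 75.7, 77.4 and 113 CPM in the second duplicates, a fall of 0.30 ± 0.03 (SE; edgeR adjusted p = 1.96e-05). The lanosterol demethylase gene Cyp51 fell by 0.27 ± 0.03 (SE). Both were lower in 7 of 7 lines. The factor's own gene Srebf2 did not pass the test (-0.05 ± 0.02 SE, edgeR adjusted p = 0.259).

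The core pluripotency factors moved little. Pou5f1 differed by 0.01 ± 0.02, Sox2 by 0.06 ± 0.02, Nanog by 0.07 ± 0.03, Klf4 by -0.08 ± 0.03, Zfp42 by -0.08 ± 0.03 and Esrrb by -0.05 ± 0.02 (log2 ± SE), and none passed the test. For Pou5f1, Sox2 and Klf4 the counts may include transcripts of the vector. Of 15 core factors tested, 2 rose, among them Utf1 by 0.15 ± 0.03 (SE), and 2 fell (Lin28a by 0.16 ± 0.03 and Tdgf1 by 0.07 ± 0.02 SE). Tdgf1 was near the threshold (edgeR adjusted p = 0.0499) and lost its call in 19 of 27 alternatives, among them shared names as the unit. Of 18 naive state genes, 2 rose and 3 fell, among them Prdm14, a repressor of differentiation genes, which rose by 0.20 ± 0.03 (SE) and was higher in 7 of 7 lines. Within control lines 1 naive state gene rose and 4 fell, and within db/db lines 3 rose and 0 fell.

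Otx2, a factor of the formative and primed states, moved more. It had 19, 21.0 and 40.8 CPM in the first and 21.2, 31.6 and 57.6 CPM in the second duplicates. It was higher in 7 of 7 lines, by 0.16 to 0.62, with a fitted difference of 0.47 ± 0.04 (SE; edgeR adjusted p = 8.83e-06). Across the primed and formative list the directions were mixed, with 3 of 17 genes higher and 3 lower and a median of 0.00.

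Genes of the BMP pathway also split. The inhibitors of differentiation Id1, Id2 and Id4 fell by 0.39 ± 0.06, 0.31 ± 0.04 and 0.15 ± 0.04 (SE). Id3 rose by 0.37 ± 0.04 (SE) and the feedback inhibitor Smad7 by 0.23 ± 0.04 (SE). Smad7 differed by 0.07 in control lines (edgeR adjusted p = 0.364) and 0.36 in db/db lines (edgeR adjusted p = 2.01e-05). Id1 differed by -0.59 in control and -0.21 in db/db lines, the latter not passing (edgeR adjusted p = 0.0536). Neither difference between genotypes passed (edgeR adjusted p = 0.0671 for Smad7 and 0.204 for Id1). Smad7 lost its call with the trend over GC content and length of transcripts removed. Lepr was listed at 0.231 to 0.463 CPM in the first and 0.116 to 0.503 CPM in the second duplicates, and its difference did not pass the test (-0.24 ± 0.24 SE, edgeR adjusted p = 0.591). Pluripotent cultures hold a few cells that resemble the cleaving embryo, called two-cell-like. Of 25 tested genes typical of them, 6 rose and 0 fell, with a median of 0.27. Zscan4f, at a median of 2.54 and 3.06 CPM, rose by 0.42 ± 0.08 (SE). The Zscan4 and Usp17l genes are near-identical copies among which estimated counts are divided, so single values are uncertain, and with shared names as the unit 2 of the 25 were called. Leaving out 1 line gave 2 without aB6_B1, bB6_A5, bB6_B1 or bdb_db5, 3 without bdb_db7 and 4 without adb_db7.

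The feedback loop of LIF signalling held the gene with the lowest p for a difference between control and db/db lines. Of LIF-STAT3 targets, 5 of 16 fell over all lines (4 with shared names as the unit) and 1, Cyp1b1, rose. Within control lines 5 were called lower, and within db/db lines 2, Stat3 and Il6st. Junb, Pim3 and Klf4 were called in control lines only, at -0.24, -0.20 and -0.17, beside -0.09, -0.07 and -0.02 in db/db lines. Their differences between genotypes did not pass (edgeR adjusted p of 0.467 to 0.792). Stat3 had 62.7, 68.8 and 75.4 CPM and then 51.0, 54.3 and 68.2 CPM, a fall of 0.24 ± 0.04 (SE; edgeR adjusted p = 0.000524). Its difference was -0.13 in control and -0.33 in db/db lines, and the difference between genotypes did not pass (edgeR adjusted p = 0.348).

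Socs3, the feedback inhibitor that Stat3 induces, behaved otherwise. In control lines it went from 420 to 284 CPM in aB6_B1, from 281 to 210 CPM in bB6_A5 and from 389 to 288 CPM in bB6_B1. In db/db lines it went from 242 to 246 CPM in adb_db5, from 183 to 181 CPM in adb_db7, from 240 to 250 CPM in bdb_db5 and from 173 to 165 CPM in bdb_db7. All 3 control lines fell and the 4 db/db lines moved by little in either direction. The difference was -0.47 ± 0.04 (SE) in control and 0.00 ± 0.03 (SE) in db/db lines, and db/db minus control was 0.47 ± 0.05 (SE; edgeR adjusted p = 0.0014 for the interaction). Socs3 kept an adjusted p of 0.000832 to 0.017 when any 1 line was left out. The 3 control lines hold only 2 names, A5 and B1, and the 4 db/db lines hold only 2, db5 and db7. Leaving out 1 line of B1, db5 or db7 keeps the other line of that name. The interaction was not tested with names as the unit, so genotype cannot be told apart from differences between names.

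In all, 2 of 17754 genes (0.0113%) differed between genotypes in their duplicate difference, Socs3 and the predicted gene Gm7332, which was at 0 CPM in 11 of 14 libraries and at most 1.92 CPM. At an unadjusted p under 0.05 there were 1094. The count was 1 without aB6_B1 or adb_db5, 4 without bB6_B1, 10 without adb_db7 and 7 without bdb_db5. Within control lines 148 genes rose (0.834%) and 192 fell (1.08%), and within db/db lines 397 rose (2.24%) and 428 fell (2.41%). Chac1 fell by 0.53 ± 0.09 (SE) in control and by 1.30 ± 0.08 (SE) in db/db lines. Its interaction did not pass (edgeR adjusted p = 0.0671). The fibroblast rise was present in both genotypes, with 23 of 30 genes called in control lines (median 0.68) and 24 of 30 in db/db lines (median 0.56).

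Among the 4 shared names, 14 genes (0.0789%) differed in their duplicate difference, and 1878 did so at an unadjusted p under 0.05. This count moved with single lines: it was 364 without aB6_B1, 207 without bB6_B1, 64 without bdb_db7, 34 without adb_db7, 14 without adb_db5 and 9 without bdb_db5. Neat1, a long RNA that forms nuclear paraspeckles, had the lowest p of these, with differences of 0.56 in B1 and 0.22 in db7, but -0.08 in A5 and -0.24 in db5 (edgeR adjusted p = 0.000705). Leng8 (0.36 in B1, 0.23 in db7, 0.01 in A5, -0.15 in db5; edgeR adjusted p = 0.0188) had the same order. The imprinted RNA Meg3 was higher by 0.88 in db7 and 0.47 in B1 and differed by 0.01 in A5 and -0.12 in db5 (edgeR adjusted p = 0.0299).

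Lactate dehydrogenase Ldhb went another way, at 0.45 in db5, 0.37 in db7, 0.17 in A5 and -0.02 in B1 (edgeR adjusted p = 0.0155). Pgk1, an enzyme of glycolysis, was at 0.18 in A5, 0.05 in db5, -0.13 in db7 and -0.18 in B1 (edgeR adjusted p = 0.0214). Dusp9, an ERK phosphatase, was at 0.33 in db7, 0.23 in db5, 0.10 in A5 and -0.12 in B1 (edgeR adjusted p = 0.0454). Fosb fell in every name, by 0.76 in B1, 0.64 in db7, 0.46 in A5 and 0.28 in db5 (edgeR adjusted p = 0.0247). The calls of Fosb, Ldhb, Leng8, Meg3, Pgk1 and Dusp9 were lost without adb_db5 (edgeR adjusted p of 0.0723 for Meg3 to 0.172 for Fosb) and without bdb_db5 (0.0782 for Ldhb to 0.154 for Fosb). Pgk1 was also lost without bB6_A5 (0.0695) or adb_db7 (0.0513), and Dusp9 without adb_db7 (0.0502) or bdb_db7 (0.0574). Neat1 and Socs3 passed when any 1 line was left out. The nuclear RNA Malat1, which is not among the 14, rose over all lines by 0.25 ± 0.06 (SE; edgeR adjusted p = 0.0224) but was higher in only 5 of 7 lines. It lost its call in 13 of 27 alternatives, among them DESeq2, shared names as the unit and leaving out aB6_B1, bB6_B1, adb_db7 or bdb_db7.

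**Figure D4:**
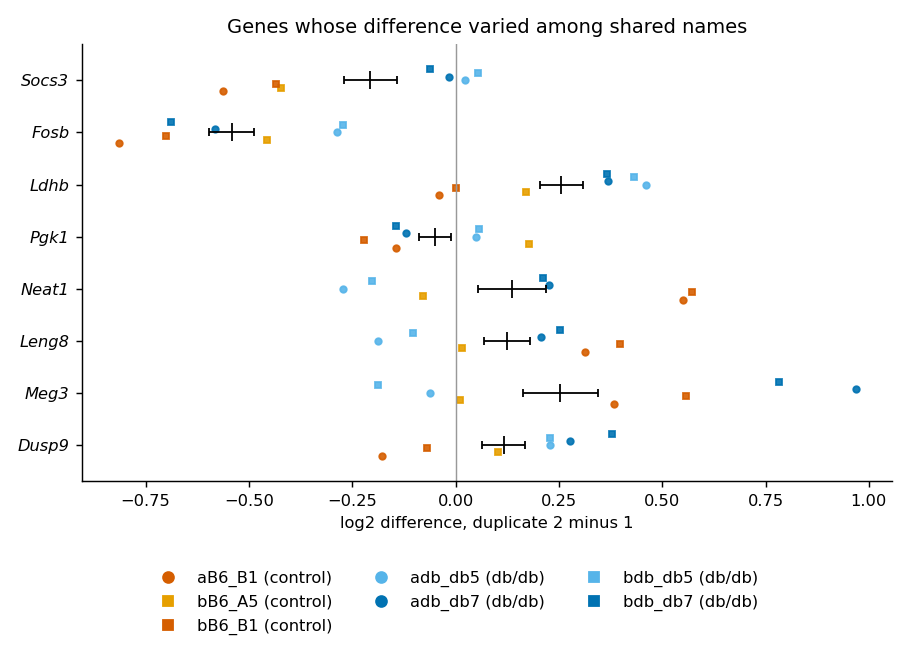
Log2 difference of duplicate 2 minus duplicate 1 (x axis) for 8 genes whose difference varied among shared names, with 1 point per line (colour for the shared name, circle for a and square for b lines) and black bars for the fitted difference ± SE. Points of the same colour lie close together, which the choice of genes by the test among names favours, and A5 has only 1 line. Socs3 lies left of 0 in control lines and near 0 in db/db lines.

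The line differences resembled each other across the transcriptome. Over 9018 genes with at least 10 CPM, those of any 2 lines correlated at 0.208 to 0.547 (Pearson, across genes, which are not independent replicates). The first component of the 7 differences held 48.3% of their summed squares, with weights of the same sign in all lines and the highest in adb_db7 (0.564), bB6_B1 (0.481) and bdb_db7 (0.464). The differences of the 30 fibroblast genes followed these weights to varying degrees, with r over the 7 lines from -0.44 to 0.93 and a median of 0.31 (a description).

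GC content of the transcript moved with the difference. With the genes sorted by GC content into quintiles, from the lowest to the highest quintile, the share called higher went from 1.14% to 10.6% and the share called lower from 9.41% to 1.66%. The trend was strong in bB6_B1, whose median log2 difference went from -0.112 in the lowest to 0.128 in the highest quintile, and in adb_db7 and bdb_db7. In aB6_B1 it went only from -0.007 to -0.010. With the trend over GC content and length removed from each library (limma with the line as a block), 425 genes were higher and 708 lower, against 769 and 1027 by the same test without the removal. Counts on the lists were close under that removal: 26 of 30 fibroblast genes were higher, 13 of 22 immediate early genes, 15 of 30 ATF4 genes and 12 of 27 cholesterol genes were lower. For FGF-ERK targets 5 of 15 and for two-cell-like genes 2 of 25 were called.

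**Figure D5:**
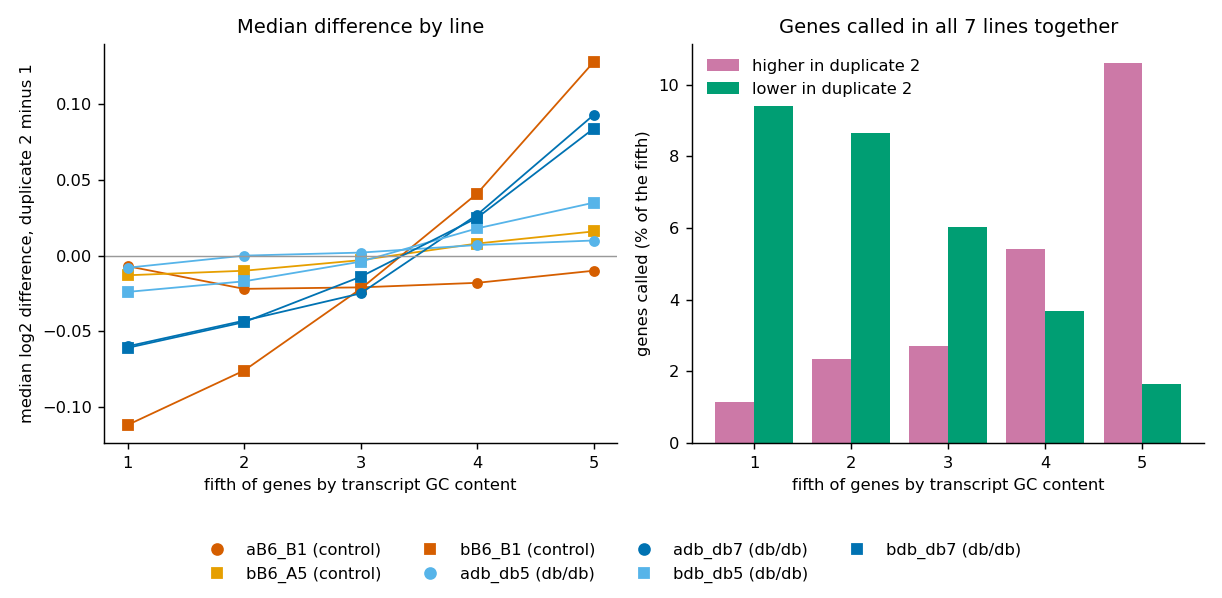
Left, median log2 difference of duplicate 2 minus duplicate 1 (y axis) in each quintile of genes by transcript GC content, 1 line per cell line. Right, percent of the genes of each quintile called higher or lower over 7 lines. bB6_B1, adb_db7 and bdb_db7 have the steepest lines, and the percent called higher climbs from 1.14 to 10.6.

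Several groups that often mark RNA quality or growth were counted, beside 4.42% of all tested genes called higher and 5.86% lower. With only genes at a mean of at least 10 CPM, 864 of 9017 were higher and 808 lower. Mitochondrial mRNAs made up 2.43% ± 0.169 (SD, n = 7) of the first and 2.42% ± 0.183 (SD, n = 7) of the second duplicates (exact two-sided sign-flip permutation test, adjusted p = 0.875), with 0 of 13 called. Among 82 genes of cytosolic ribosomal proteins, 2 were higher and 5 lower, with a median of -0.01. Of 43 DNA replication genes 1 rose and 3 fell, with 32 of the 43 below 0, and of 46 mitosis genes 0 rose and 2 fell. Ribosome biogenesis genes fell in a larger share, 13 of 70 with 0 rising and a median of -0.05, and with shared names as the unit 2 of the 70 were called. It was 7 without bB6_B1, adb_db7 or bdb_db7. Of 48 translation factor genes 9 fell and 1 rose, with a median of -0.05. Of 32 proteasome genes 5 fell and 0 rose, with a median of -0.04. The number of genes with at least 1 CPM was higher in duplicate 2 in 7 of 7 lines, with means of 13172 and 13285 (exact two-sided sign-flip permutation test, p = 0.0156, adjusted 0.0416). Those libraries had fewer counts, and the level of 1 CPM was relative to each library's own total. The part of GC content, library totals and genes detected in the rises and falls above was not tested beyond these values.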

How the data were processed

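RNA of 14 libraries (7 lines, duplicates 1 and 2) was compared. For 19 libraries, the authors deposited estimated counts by gene in 1 table. The submitters' processing notes name Kallisto and GRCm38; for its version, index and summing over transcripts, nothing was stated in those notes or the labels. The files did not record a filter. The 5 columns of libraries without such a pair were not used. Of 52143 gene identifiers, 51336 matched GENCODE M21 names. Estimated counts divide reads between similar transcripts, 80% of values were whole within 1e-06, and all were rounded to whole numbers before testing.

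Groups and pairs came from the titles. The number 1 or 2 pairs libraries because both come from the same line. The 17754 genes that passed filterByExpr were TMM-scaled. The quasi-likelihood test of edgeR 4.0.16 in R 4.3.3 had the line as block, and calls were made at a Benjamini-Hochberg adjusted p of 0.05. Interaction terms tested differences between genotypes and among the 4 shared names in the same 14 libraries. CPM values used the TMM-scaled library sizes, and differences of single lines a prior count of 2. Library shares were tested by exact sign-flip permutation over 7 lines. Gene lists were described by counts and medians, with no test beyond those of the library shares. Totals of 27333914 to 37803560 counts per library leave genes under about 1 CPM imprecise. Standard errors were computed from the fitted difference and the F statistic of the edgeR test. They hold counting error as well as variation between libraries.

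Genes were named by rule: per direction the 10 largest differences with an adjusted p under 0.05, the same sign in 7 lines and at least 5 CPM in the higher duplicate, without predicted genes and pseudogenes (27 rises and 29 falls were left out so). Added were 13 fixed genes, up to 4 genes per described list and the genes of lowest p for genotype and name differences. Some genes counted on the lists are not reported singly here. Single genes given as examples beyond these were chosen after their values were seen. The comparison, members and lists were chosen with earlier results of these data known. Alternatives were other scalings, DESeq2 1.42.0, limma 3.58.1 (voom with a random block, and log2 CPM with and without a GC and length trend), other filters, no block, shared names as the unit, subsets of lines and leaving out each line or name. The fit on log2 CPM with no trend removed, and further list counts, were added after the data were examined. DESeq2's likelihood ratio test was run without independent filtering. Tables and figures were made in Python 3.11.15 (pandas 2.3.3, matplotlib 3.10.9).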

Additional observations from a re-analysis of the deposited data

Results flagged for a closer look

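In each set of 7 line differences, the line farthest out was compared with the spread of the others (its gap to the nearest line over the whole range, against Dixon's critical value). Of 166 sets, 12 held a line that stood apart, and chance gives about 1 in 20. In 8 of the 12 the line was adb_db7, whose second library had many counts on ribosomal RNA overlapping transcripts. Its difference there was 4.477 percentage points, and it was 0.008304 points for histones and 4.797 points for the 100 most abundant genes. Its list medians were 2.33 for transcripts overlapping ribosomal RNA, 2.41 for replication-dependent histones, 3.15 for short RNAs without a poly(A) tail and 0.05 for inflammation genes. Gm42418, which overlaps a ribosomal RNA sequence, differed by 3.29 there. Col1a1 rose least in bB6_A5, by 0.54. Myl9 differed by -0.07 in bdb_db5 and rose in the other lines. The list of immediate early genes had its lowest median, -0.23, in aB6_B1, and the cytoskeleton list its highest, 0.12, in bB6_B1.

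Differences between groups came from the interaction tests of edgeR with adjusted p-values. Socs3 differed by 0.47 between db/db and control lines (adjusted p = 0.0014, higher in 2 of 4 db/db and lower in 3 of 3 control lines). Among shared names, the value farthest from 0 was -0.50 in B1 for Socs3 (adjusted p = 0.00758), -0.76 in B1 for Fosb (adjusted p = 0.0247), 0.45 in db5 for Ldhb (adjusted p = 0.0155), 0.56 in B1 for Neat1 (adjusted p = 0.000705) and 0.36 in B1 for Leng8 (adjusted p = 0.0188). It was -0.18 in B1 for Pgk1 (adjusted p = 0.0214), 0.88 in db7 for Meg3 (adjusted p = 0.0299) and 0.33 in db7 for Dusp9 (adjusted p = 0.0454).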

How the results depend on the processing

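Without the line as a replicate block, edgeR called 0 genes higher and 0 lower of 16061 (442 at an unadjusted p under 0.05), so the calls rest on the pairing by line. Genes higher and lower in duplicate 2 numbered 340 and 382 with shared names as the unit, 282 and 287 in the b lines, 99 and 83 in the a lines, 160 and 119 in control lines alone and 441 and 501 in db/db lines alone. Other counts that moved by over 1.5 times were 613 lower with library size alone, 467 higher with DESeq2, 425 higher with the GC and length trend removed, 604 lower without name B1, and 264 higher and 344 lower without name db7. Leaving out each line gave 466 to 737 higher and 539 to 899 lower. Genes differing between genotypes numbered 1 to 10 when each line was left out, and those differing among names 9 to 364, 66 at a mean of at least 10 CPM and 33 by DESeq2's likelihood ratio test. Of the 79 named genes called, 31 were called under every alternative that tested them except the fit without the block. Gm42418 reversed to -0.47 in control lines alone and Cpt1a to 0.11 in db/db lines alone. For library measures, 4 names cannot give a p under 0.125: total counts differed by -4244000, genes at 1 CPM or more by 104.9 and the fibroblast share by 0.03555 points. Without the replicate block the exact permutation p was 0.239 for genes detected (113) and 0.0507 for the fibroblast share (0.03704 points). At low levels the precision is limited: Lepr, under 1 CPM, had an SE of 0.24.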

Other observations

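Counts of some other groups follow, beside 4.42% of all tested genes called higher and 5.86% lower. These lists share members with the fibroblast list: Acta2 and Cnn1 are also cytoskeleton genes here. Lox is also on the hypoxia list. Of 31 cytoskeleton genes and targets of serum response factor, 11 rose and 7 fell with a median of 0.01. Those that rose included the contractile genes Myl9 (0.91 ± 0.14 SE), Cnn1 (0.53 ± 0.13 SE) and Tpm2 (0.27 ± 0.06 SE) and the intermediate filament gene Vim (0.18 ± 0.03 SE). Those that fell included the common actins Actg1 (-0.15 ± 0.03 SE) and Actb (-0.07 ± 0.02 SE) and the factor's own gene Srf (-0.11 ± 0.03 SE). Of 37 hypoxia response genes 8 rose and 2 fell, among them Egln3, which marks the hypoxia factor for decay (0.23 ± 0.04 SE), the collagen-modifying enzyme gene P4ha1 (0.20 ± 0.03 SE) and the angiogenic factor Vegfa (0.15 ± 0.03 SE). Bhlhe40, a repressor of the clock, fell by 0.25 ± 0.04 (SE).

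Of 30 p53 targets 5 rose and 0 fell, with Pmaip1 at 0.17 ± 0.03 and the cell cycle inhibitor Cdkn1a at 0.10 ± 0.02 (SE). Of 20 NRF2 targets, which counter oxidative stress, 0 rose and 5 fell (Txnrd1, Gclm, Prdx1, G6pdx and Hmox1), by 0.09 to 0.12. Imprinted genes were lower in 5 of 33 cases, including Phlda2 (-0.41 ± 0.09 SE) and Grb10 (-0.26 ± 0.03 SE), while H19 rose by 0.47 ± 0.06 (SE). Cpt1a, which brings fatty acids into mitochondria, was lower in 3 of 3 control lines (-0.14 ± 0.03 SE) and higher in 4 of 4 db/db lines (0.11 ± 0.03 SE), but the difference between genotypes did not pass (0.25 ± 0.04 SE, edgeR adjusted p = 0.0785). These examples were chosen after their values were seen.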
